A study of Mus musculus with 6 samples.

Results

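Retinoic acid is made from vitamin A inside cells, and 9 genes of this supply line and of the related aldehyde dehydrogenases are described here in cultured mesenchymal stem cells of the mouse, plastic-adherent marrow cells that can form bone, fat and cartilage. They were Aldh1a1, Aldh1a2, Aldh1a3, Aldh1a7, Aldh3a1, Crabp1, Crabp2, Rarb and Cyp26b1, 9 of the 22300 genes named on the arrays. Members were found by the gene symbol in the authors' deposited table. Each had 1 row on the array, so the rule of taking the row with the highest mean had no choice to make. The set was put together with the differences between the cultures already known. The clone and population values of the members are therefore given as a description, with no test.

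The study set MSC21, a mesenchymal cell population taken from mouse bone marrow, beside Clone 4L.1.4, a tertiary clone derived from that population. There were 3 arrays per group, each from an independent cell sample grown to confluence in the same stem cell medium. The labels name no treatment, strain, sex, age or number of animals, and the clone is a single clone. All values are log2 levels on Affymetrix arrays after RMA, a method that corrects background and brings all arrays toward the same distribution. As each array reads bulk RNA, fewer cells expressing a gene and less of its RNA per cell cannot be told apart, and p-values measure the spread between cultures of 1 population and 1 clone.

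As background, retinol is oxidised to retinal by Rdh10 and returned to retinol by Dhrs3. Enzymes of the ALDH1A family, those of Aldh1a1, Aldh1a2 and Aldh1a3, then oxidise retinal to retinoic acid, a step that cannot be reversed. Crabp2 carries retinoic acid to its nuclear receptors, the RAR and RXR proteins, while Crabp1 holds it in the cytoplasm, and the CYP26 enzymes break it down. Retinoic acid directs lineage choices of mesenchymal cells, and aldehyde dehydrogenase activity is widely used to mark stem and progenitor cells.

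Upstream sequences are shown for 4 members, because Rarb is a textbook target of its own ligand, because Aldh1a1 and Aldh1a7 are close relatives that lie beside each other, and because Aldh1a2 shares a short word with both. They are the 250 bases before the annotated start, from RefSeq on GRCm38.p6. Rarb lies at chr14:16575477-16575726 (minus strand), Aldh1a1 at chr19:20601718-20601967 (plus strand, the second of its 2 listed starts), Aldh1a7 at chr19:20727557-20727806 (minus strand) and Aldh1a2 at chr9:71215539-71215788 (plus strand). Capitals mark the 2 hexamers of a direct repeat in Rarb, the longest run shared by Aldh1a1 and Aldh1a7 in those genes, and the word ATGCAAAT in Aldh1a2.
Rarb: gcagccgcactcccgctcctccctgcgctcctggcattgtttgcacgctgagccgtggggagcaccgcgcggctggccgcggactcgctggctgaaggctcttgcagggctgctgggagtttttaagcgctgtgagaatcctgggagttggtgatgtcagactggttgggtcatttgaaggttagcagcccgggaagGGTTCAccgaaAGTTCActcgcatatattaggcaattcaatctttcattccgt
Aldh1a1: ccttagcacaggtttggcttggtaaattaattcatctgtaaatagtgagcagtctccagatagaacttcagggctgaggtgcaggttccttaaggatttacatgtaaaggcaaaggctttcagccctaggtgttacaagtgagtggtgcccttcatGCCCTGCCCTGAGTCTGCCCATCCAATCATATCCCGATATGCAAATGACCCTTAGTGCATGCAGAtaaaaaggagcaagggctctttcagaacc
Aldh1a7: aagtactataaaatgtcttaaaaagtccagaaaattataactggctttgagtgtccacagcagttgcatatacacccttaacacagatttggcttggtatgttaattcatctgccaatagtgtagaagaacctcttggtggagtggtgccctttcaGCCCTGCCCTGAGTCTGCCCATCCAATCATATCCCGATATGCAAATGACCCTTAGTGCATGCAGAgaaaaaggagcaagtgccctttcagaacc
Aldh1a2: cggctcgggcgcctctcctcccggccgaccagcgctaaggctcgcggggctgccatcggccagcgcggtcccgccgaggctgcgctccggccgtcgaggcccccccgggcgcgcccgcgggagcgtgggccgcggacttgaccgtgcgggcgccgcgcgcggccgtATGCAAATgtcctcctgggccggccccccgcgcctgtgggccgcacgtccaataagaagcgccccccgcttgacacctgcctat

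A retinoic acid response element is a direct repeat of a receptor hexamer. The form with 5 bases between the hexamers, known as DR5, was searched on both strands of these windows, each hexamer being AGGTCA, with G allowed for its leading A and T for its last G. Windows were listed for 6 of the 9 members, 7 in all because Aldh1a1 has 2 starts, and none was listed for Aldh1a3, Aldh3a1 and Crabp2. Rarb was the only member with such a repeat, 53 to 37 bases before its start, against 0.0883% of all 32851 windows. Repeats with 1 base or 2 bases between occurred in 0 of the 7 member windows and in 0.164% and 0.174% of all windows. Upstream of the second start of Aldh1a1, 94 of the nearest 100 bases were identical to those of Aldh1a7 at the same distance, including an unbroken run of 65 bases from 94 to 30 bases before the start. Farther out, 35 of 150 positions matched without gaps, a count that misses stretches shared at unlike distances, such as tttggcttggta in both windows. It therefore does not show where the likeness ends. Upstream of its first start, 30 of the nearest 100 bases were identical, and the longest shared run was 8 bases. The run of 65 bases holds ATGCAAAT, the octamer bound by POU-family factors, which was looked for after the sequences had been read. It also stands in Aldh1a2, so 3 of 7 member windows hold it, against 1.6% of all windows. The windows of Aldh1a1 and Aldh1a7 hold it through the run they share. As the octamer was picked from these same windows, nothing is read from this share. These matches describe letters in a window and say nothing about binding in these cells.

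Before the members are described, a few facts of the arrays bear on how exact their sizes are. Over the 35556 rows the median of an array was 5.19 to 5.21 in the population and 5.23 to 5.25 in the clone. The lower quartile was 4.54 to 4.58. As the arrays have no measured floor, a difference that starts or ends near the lower quartile is not exact in size. Levels of different rows do not compare genes with each other. Of 12 mesenchymal stromal markers 11 lay above the array medians in the population, 3 were higher and 7 lower in the clone, and their mean level ran from 9.60 to 9.62 in the population and from 9.16 to 9.19 in the clone. Eng, a surface marker of these cells, lay below the array medians in both groups (4.89 and 4.88, population first). Thy1 (6.43 and 4.61) and Nt5e (6.35 and 4.55), among the 7 lower markers, came near the lower quartile in the clone. The 3 higher markers were Pdgfra (9.98 and 11.41), Pdgfrb (9.54 and 10.31) and Prrx1 (11.22 and 11.72). Of 6 leukocyte markers 1, Cd53, was lower in the clone, with list means of 4.66 to 4.69 and 4.47 to 4.57. The pan-leukocyte gene Ptprc stood at 4.37 and 4.39. None of 5 endothelial and 4 epithelial markers was called by limma or with the authors' deposited p-values once adjusted over all rows. Of these markers, 0 and 1 had an unadjusted limma p under 0.05. Their list means were 4.31 to 4.36 against 4.31 to 4.37 and 4.71 to 4.83 against 4.55 to 4.76. The part of these markers in the results below was not tested.

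**Figure D1:**
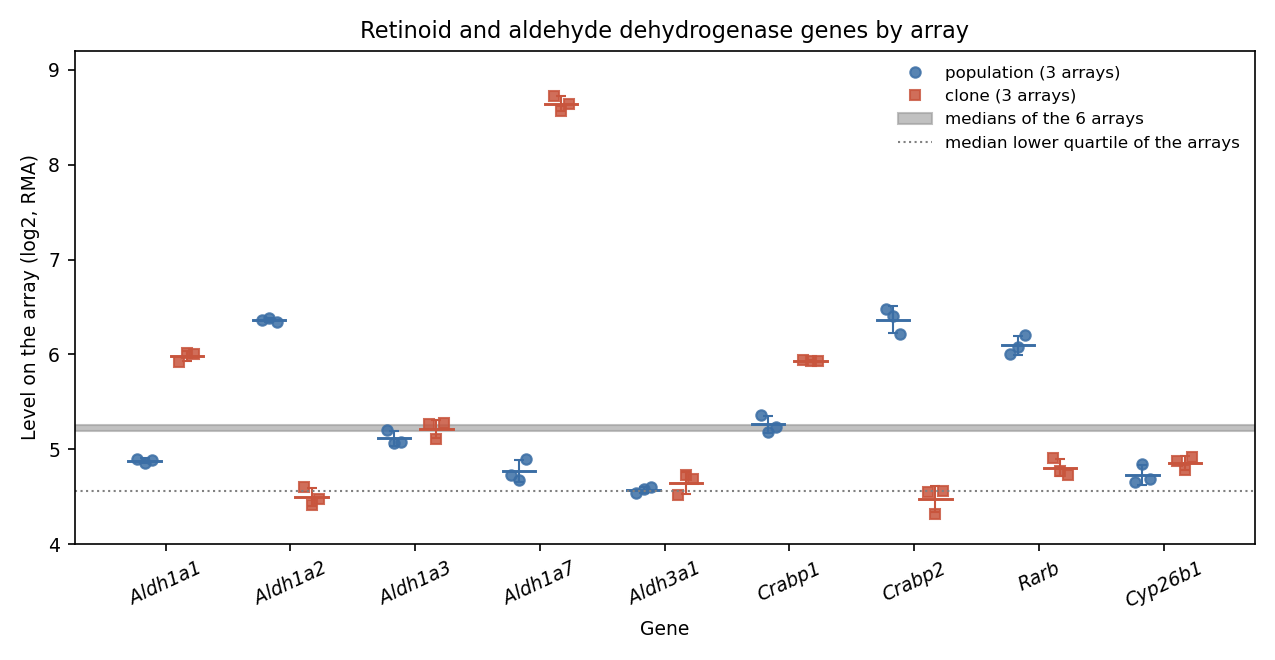
Level on the array (vertical axis, log2 after RMA) of the 9 members in 3 population arrays (circles) and 3 clone arrays (squares), with bars for the mean ± SD, a band for the medians of the 6 arrays and a dotted line for the median of their lower quartiles. Aldh1a7 moves from below the array medians to 8.57 to 8.72 in the clone, while Aldh1a2 and Crabp2 move the other way, from above 6.2 to the level of the lower quartiles.

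The retinal-oxidising enzymes did not move together. Aldh1a2, the main retinoic acid producer of the embryo, read 6.37, 6.38 and 6.35 in the population and 4.61, 4.42 and 4.47 in the clone. The groups did not overlap, and the clone was lower by a factor of 3.65, with a log2 difference (clone minus population, here and below) of -1.87 ± 0.06 (SE, n = 3 each). In the population Aldh1a2 lay above 65.7% of the rows of its array, and in the clone above 20.8%, so the lower end of this difference reached the dim part of the array and its size is not exact.

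Aldh1a1, a retinal dehydrogenase of many adult tissues, went the opposite way. It read 4.90, 4.85 and 4.89 in the population, below every array median, and 5.92, 6.01 and 6.01 in the clone, above every array median. The groups did not overlap, and the log2 difference was 1.10 ± 0.05 (SE), or 2.14-fold. As the population level was dim, this size is not exact.

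Aldh1a7, the close rodent relative of Aldh1a1, showed the largest difference of the members, though arrays do not show whether its product oxidises retinal. Its population arrays read 4.73, 4.68 and 4.90 and its clone arrays 8.72, 8.57 and 8.64. No clone array came near a population array, and the means of 4.77 ± 0.11 and 8.64 ± 0.07 (SD, n = 3) stood 14.7-fold apart (log2 difference 3.88 ± 0.08, SE). In its own arrays the gene moved from below the median to above 85.6% of rows, and as it started from a dim level the size is not exact. Because Aldh1a1 and Aldh1a7 are near relatives and the probe sequences were not used here, binding of each transcript to the other gene's probes cannot be told apart from its own signal, and the smaller difference of Aldh1a1 is uncertain for that reason.

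Aldh1a3, the third retinal dehydrogenase of the family, read 5.21, 5.07 and 5.08 in the population and 5.27, 5.11 and 5.28 in the clone. These values overlapped at the height of the array medians, and the log2 difference was 0.10 with a 95% interval of -0.07 to 0.27. Aldh3a1, known for its abundance in the cornea and for oxidising aldehydes from lipid peroxidation, read 4.54, 4.58 and 4.60 in the population against 4.52, 4.73 and 4.69 in the clone. It stood at the lower quartile of the arrays in both groups, with overlapping values and an interval of -0.09 to 0.24 around a difference of 0.07. At such dim levels RMA compresses differences, so these intervals may be too narrow for the change in RNA.

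The retinoic acid carriers also parted. Crabp2, which hands retinoic acid to its receptors, read 6.48, 6.41 and 6.21 in the population and 4.55, 4.32 and 4.56 in the clone. Its groups stood well apart, 3.71-fold lower in the clone (log2 difference -1.89 ± 0.10, SE), with the clone level above only 19.6% of rows and the size therefore not exact. Crabp1, the cytoplasmic carrier, read 5.36, 5.18 and 5.24 in the population and 5.94, 5.93 and 5.93 in the clone. It moved the other way, from near the array medians to above them, by 0.67 ± 0.06 (SE) on the log2 scale, or 1.59-fold, and its 3 clone arrays had the smallest spread of any member (SD 0.006).

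Rarb, the receptor gene with the direct repeat shown above, read 6.01, 6.08 and 6.21 in the population and 4.91, 4.78 and 4.73 in the clone. The groups did not overlap, and the clone was lower by a factor of 2.45 (log2 difference -1.29 ± 0.08, SE), to a level below every array median. Cyp26b1, an enzyme that removes retinoic acid, read 4.66, 4.84 and 4.68 in the population and 4.87, 4.78 and 4.92 in the clone. Its groups overlapped below the array medians, and the log2 difference of 0.13 had a 95% interval of -0.04 to 0.30.

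Among the 9 members, Aldh1a1, Aldh1a7 and Crabp1 were higher and Aldh1a2, Crabp2 and Rarb lower in limma's fit over all rows at an adjusted p under 0.05, a fit in which 23.8% of rows were called, 12.8% higher and 10.9% lower. The same 6 were the members whose groups did not overlap, as held for 37.2% of all rows, 20.2% with the clone above and 17% with it below. The members that differed at least 2-fold were Aldh1a1, Aldh1a2, Aldh1a7, Crabp2 and Rarb, against 2.88% of all rows. As the members were chosen with this contrast known, nothing is read from these shares. The spread between arrays of a group was like that of other rows, with a median SD over members of 0.092 in each group against 0.081 over all rows.

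The other genes of the pathway, from lists that did not hold the members, were read from the same fit with Benjamini-Hochberg adjustment over all rows. These lists too were chosen with earlier results of these data known, so their counts and p-values are given as a description. Of 60 measured genes for retinol handling, oxidation, reception and known responses, 8 rose and 12 fell, and 40 were not called. Over all named genes 29.1% were called in either direction, which is also the share to set beside the lists below. The median log2 difference of the 60 genes was -0.02, beside 0.004 over all rows and -0.007 over all named genes. The plot of pathway differences shows the lists side by side.

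**Figure D2:**
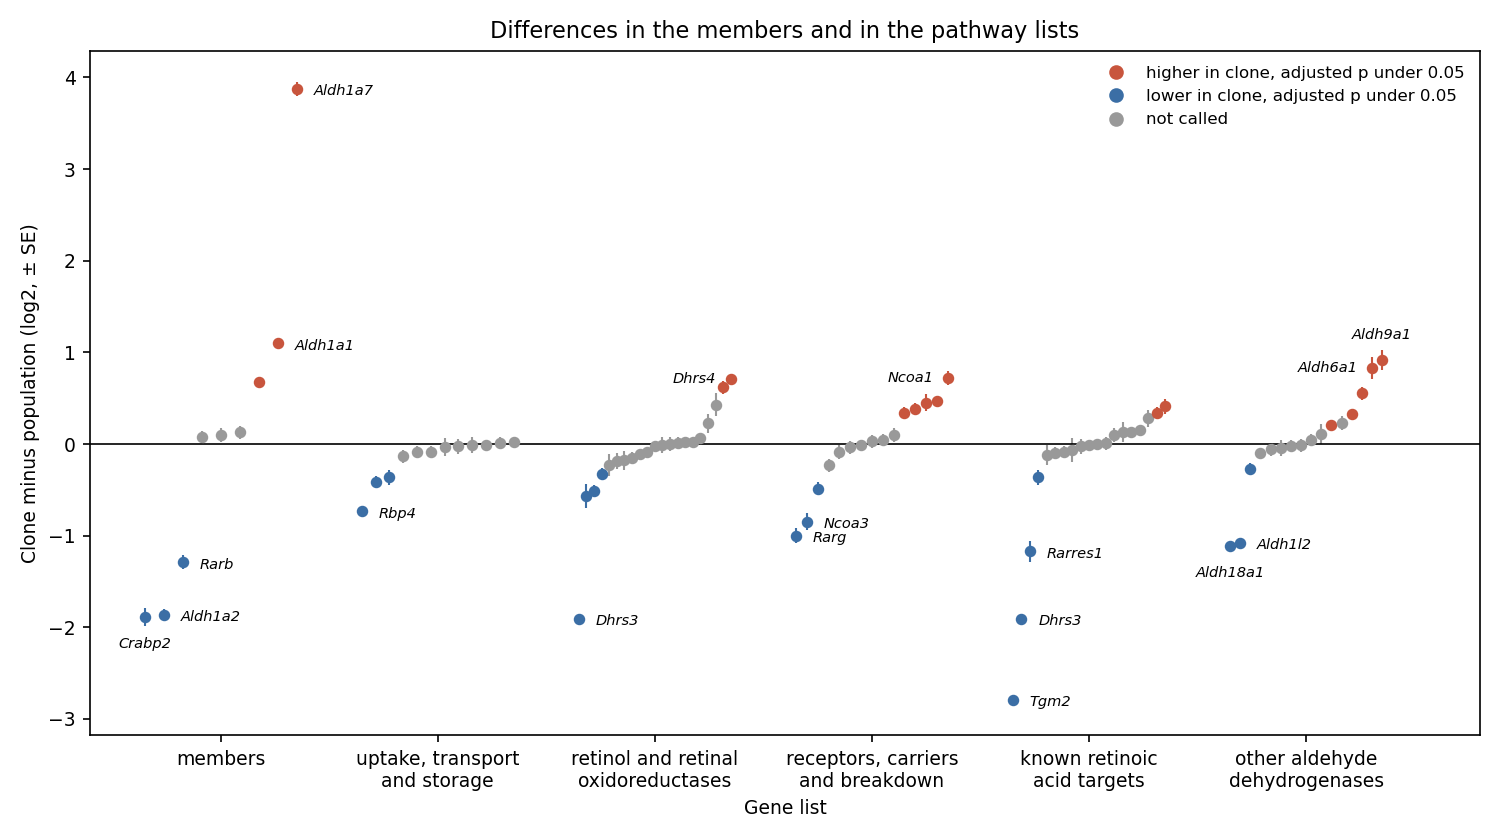
Log2 difference of clone minus population (vertical axis, points ± SE) for the 9 members and for the measured genes of 5 lists (horizontal axis), coloured by the call over all rows. Dhrs3 and Tgm2 are the lowest genes of their lists at -1.91 and -2.79.

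Among 12 genes of retinol uptake, transport and storage, 3 fell and the other 9 were not called (list median -0.06). Rbp4, the retinol carrier of the blood, read 6.94, 6.94 and 6.88 in the population and 6.19, 6.20 and 6.16 in the clone, a fall by 0.73 ± 0.05 (SE, adjusted p = 9.13e-05, limma). All 3 clone arrays lay below all 3 population arrays. Dgat1, an acyltransferase that can esterify retinol besides making triglycerides, fell by 0.41 (adjusted p = 0.00483, limma). Its value was 0.09 and not called once the median difference of the genes of its chromosome above the median level had been taken off, a setting added after seeing the data that also ended calls named below. The retinol receptor gene Stra6 was not called, with mean levels of 4.96 and 4.88.

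Of 21 oxidoreductase genes, 2 rose and 4 fell (list median -0.02). Dhrs3, which reduces retinal back to retinol, read 9.96, 10.01 and 9.94 in the population and 8.01, 8.07 and 8.09 in the clone. These levels are well above the array medians in both groups, the values did not overlap, and the fall was 3.76-fold (log2 difference -1.91 ± 0.05, SE, adjusted p = 2.78e-06, limma). Rdh10, which makes retinal from retinol, read 8.01, 7.86 and 7.86 against 7.45, 7.41 and 7.35, a smaller fall by 0.51 ± 0.06 (adjusted p = 0.00144, limma). The alcohol dehydrogenase gene Adh5 fell by 0.32, and Adh7, which can oxidise retinol, by 0.57 (adjusted p = 0.0211, limma). The call of Adh7 was lost without population array 1 (-0.55) or 2 (-0.48) and without clone array 1 (-0.56) or 3 (-0.47). Dhrs4, a carbonyl reductase, rose by 0.71 and Adh1 by 0.62, the latter from a dim population level of 4.62. Adh1, Adh5 and Adh7 lie on chromosome 3, where genes above the median level had a median difference of -0.42 (545 genes). With this median taken off, Adh1 stood at 1.04, Adh5 at 0.10 and Adh7 at -0.15, the last pair not called.

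Receptor, carrier and breakdown genes numbered 15, of which 5 rose and 3 fell (list median 0.03). Rarg, a retinoic acid receptor expressed in skeletal and skin cells, read 7.83, 7.80 and 7.74 in the population and 6.62, 6.86 and 6.90 in the clone. Its values did not overlap, and it fell 2-fold (SE of the log2 difference 0.08, adjusted p = 0.000268, limma). Rara, the most widely expressed of these receptors, rose by 0.34 (adjusted p = 0.00661, limma) and their partner Rxra by 0.45 (adjusted p = 0.0118, limma), so the receptor genes did not share a direction. With the chromosome median of brighter genes taken off, Rara stood at 0.14 and was not called. Fabp5, a fatty acid carrier that can deliver retinoic acid to another receptor, fell by 0.49 in the row used and by 0.52 in its second row, values that are uncertain because near-identical gene copies exist. The Fabp5 gene lies on chromosome 3 as well, and the row used stood at -0.06 and was not called with that median taken off. Chromosomes were assigned by gene name, and whether this row reads the chromosome 3 gene or a copy elsewhere was not checked. Nothing is therefore read from that value. Cyp26a1, the retinoic acid hydroxylase best known as a target of retinoic acid, read 4.12, 4.07 and 4.05 in the population and 4.08, 4.07 and 4.07 in the clone, at the bottom of the arrays and not called.

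Of 19 genes known to respond to retinoic acid, 2 rose and 4 fell (list median -0.01), and some of them also stand in the lists above. Tgm2, the tissue transglutaminase that retinoic acid induces in several cell types, averaged 8.97 ± 0.02 over the population arrays and 6.18 ± 0.03 over the clone arrays (SD, n = 3 each). It fell 6.92-fold (log2 difference -2.79 ± 0.05, SE, adjusted p = 5.83e-07, limma), with every clone array far below every population array. Rarres1, named for its response to retinoic acid receptor ligands, fell by 1.17 ± 0.11 (adjusted p = 0.000457, limma) in its brighter row, while a second row at the low end of the arrays was not called (-0.07). Dhrs3, described above, fell as well, and Meis2, a homeobox gene, rose by 0.41 (adjusted p = 0.0112, limma) as did Rara. The remaining 13 genes, among them the Hox genes of the list, were not called.

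Other aldehyde dehydrogenase genes, 16 in number, split into 5 that rose and 3 that fell (list median 0.01). Aldh18a1, which makes the precursor of proline, read 11.32, 11.28 and 11.36 in the population and 10.16, 10.20 and 10.27 in the clone, a fall by 1.11 ± 0.05 (SE, adjusted p = 2.86e-05, limma). Aldh1l2, a mitochondrial enzyme of folate metabolism, fell by 1.08 ± 0.05 (adjusted p = 2.76e-05, limma), from 10.07 to 8.99. Both were bright in either group. Aldh9a1, which oxidises an intermediate of carnitine synthesis, rose by 0.92 ± 0.11 (adjusted p = 0.00125, limma) and Aldh6a1, of valine breakdown, by 0.83 ± 0.12 (adjusted p = 0.00278, limma). Aldh16a1 rose by 0.55 and Aldh7a1, of lysine breakdown, by 0.33, the latter 0.17 and not called with the chromosome median of brighter genes taken off. Aldh2, the mitochondrial acetaldehyde enzyme, was called at 0.21 (adjusted p = 0.0345, limma), a call lost without population array 2 (0.21) or 3 (0.17) and without clone array 1 (0.21), 2 (0.19) or 3 (0.23). Its call was also lost with the arrays centred (0.17), with each chromosome centred on all its genes (0.15) and on its brighter genes (-0.0041). Aldh1b1 and Aldh3a2 were not called (-0.06 and -0.09). The largest difference of this list, in Aldh18a1, was smaller than those of Aldh1a7 and Aldh1a2 and about the size of that in Aldh1a1 (1.10). As the members were chosen with this contrast known, nothing is read from these sizes.

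The members were also set beside their neighbours in gene order, 3 measured named genes on each side. Of the 49 neighbours that are not members themselves, 7 were higher, 9 lower and 33 not called, so 32.7% were called beside 29.1% of all named genes. On chromosome 19, Gm6684 is the single measured gene between Aldh1a1 and Aldh1a7 and was not called (0.08 ± 0.05, SE). Tmc1, on the far side of Aldh1a7, was not called either (0.06), and Anxa1, on the far side of Aldh1a1, was lower in the clone (-0.78). The neighbours of Aldh1a2 and of Rarb did not share a fall of their size, the lowest of each being Cgnl1 (-0.63) and Nr1d2 (-0.37, not called).

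Crabp2 differed in this respect, since the 3 genes before it, Hdgf (-1.05), Mrpl24 (-0.59) and Isg20l2 (-0.48), and the gene after it, Nes (-3.62), were all lower in the clone. Genes of chromosome 3 above the median level had a median difference of -0.42 (545 genes), beside 0.03 over all such genes (11431). The Crabp2 difference was -1.80 once the median over all 966 named genes of its chromosome (-0.09) had been taken off, and -1.47 with the median of the 545 brighter ones taken off instead. The part of its chromosome in this value was otherwise not tested. The neighbour plot shows the loci side by side, and all neighbours named here were chosen by position after the members' values were seen.

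**Figure D3:**
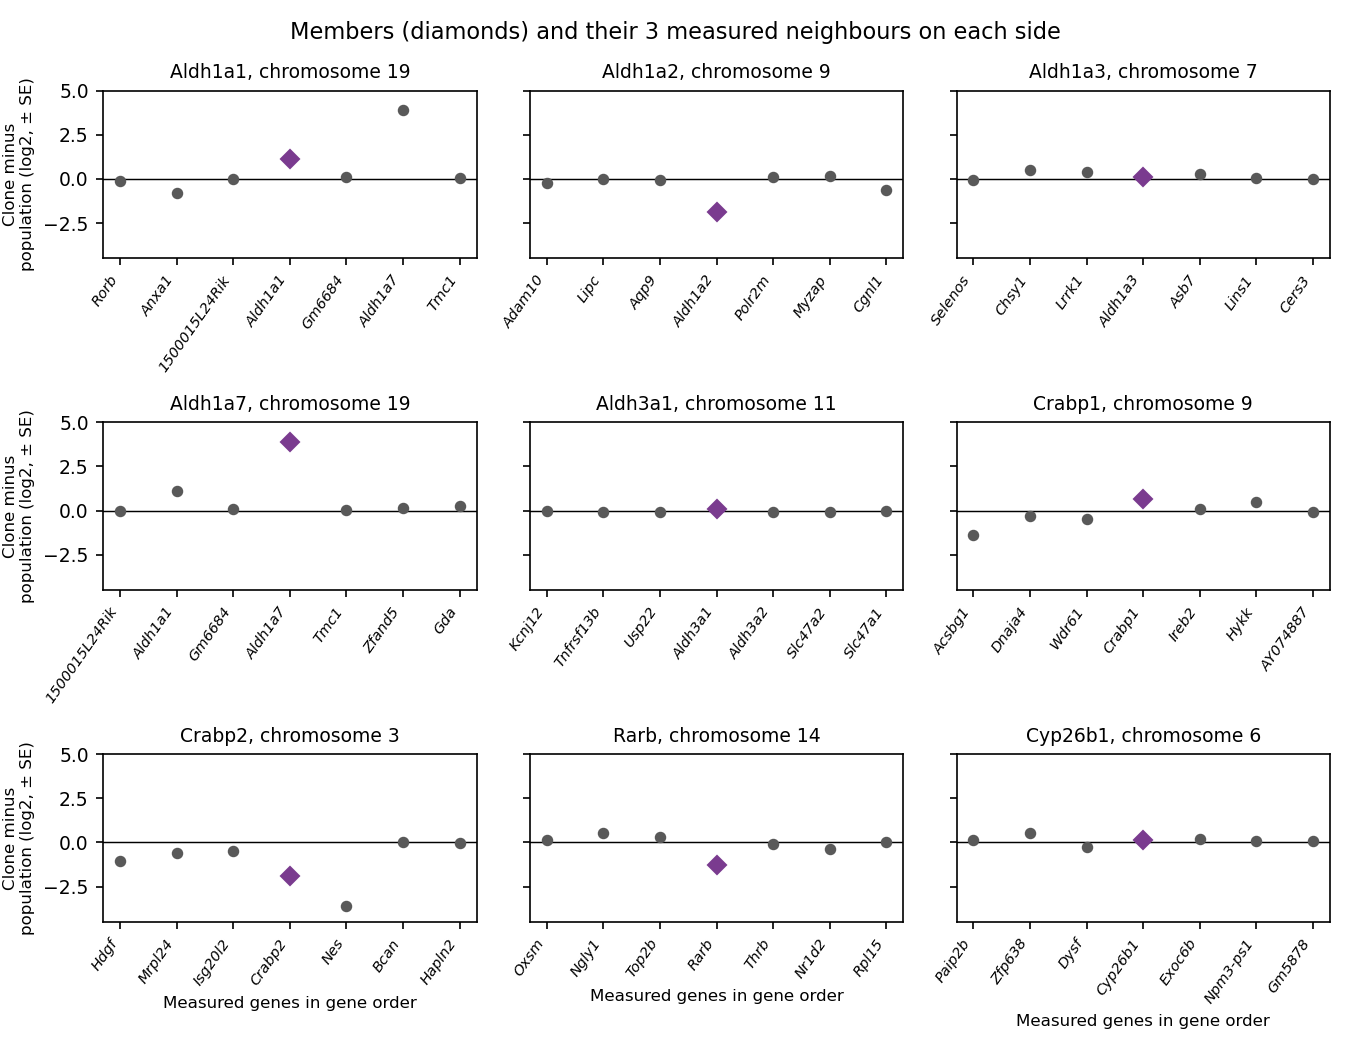
Log2 difference of clone minus population (vertical axis, points ± SE, same scale in every panel) for each member (diamond) and its 3 measured neighbours on each side in gene order (circles). Aldh1a1 and Aldh1a7 stand above 0 with a gene near 0 between them, and Crabp2 stands among neighbours that lie below 0 on its left and Nes on its right.

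For the members with the largest differences, the genes with the most similar pattern were sought by the root-mean-square distance between the 6 log2 values, each gene centred on its own mean. The nearest to Aldh1a7 were Svep1, a large extracellular adhesion protein (0.11 log2 units), Cebpa, a regulator of fat cell formation (0.15), and Hpgd, which breaks down prostaglandins (0.19). Nearest to Crabp2 were the tubulin gene Tubb2b (0.05), Spp1, which encodes osteopontin (0.08), and Dcn, the proteoglycan decorin (0.09). With 3 arrays in each of 2 groups, such a likeness mostly reflects an equal difference between the groups. The 6 genes lie on 6 chromosomes, none of them that of the member they resemble.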

How the data were processed

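Biotin-labelled cRNA from total RNA was read on Affymetrix arrays, as the labels' protocols state. The deposited value table holds log2 levels, and the submitters' processing notes name RMA and Partek for it. Array type, annotation and versions are not stated there. The authors' deposited table gives gene symbols, an unadjusted p-value and a signed fold (treated as a score) per row, and its log2 fold matched the difference of group means within 7.8e-05. A further 6 columns of that table match no label and were not used.

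Groups came from the labels. All 35556 rows were fitted with limma 3.58.1 in R 4.3.3 (lmFit and eBayes, defaults, 2.72 prior degrees of freedom), two-sided, with Benjamini-Hochberg adjustment over all rows and a threshold of 0.05. The fit was tested on simulated data. The number of arrays limits the precision. Older gene names were replaced with current ones from RefSeq (GRCm38.p6), which was also used for chromosomes, gene order and upstream sequence.

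The members and lists were chosen with earlier results of these data known. Named genes were the members, up to 6 called genes of largest difference per list, 13 fixed pathway genes, and 3 genes of like pattern for each of 2 members. Chromosome neighbours and the other genes named outside this rule were chosen after their values were seen, and some genes of the lists are not reported here. The alternatives tried were a block for the sample number, other scalings, a filter on dim rows and other variance models. The authors' p-values, with Benjamini-Hochberg adjustment over all rows, and rows averaged per gene were also used. Chromosomes were centred on all their genes or, added after seeing the data, on their brighter genes. The rest were a stricter threshold and leaving out each array.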

Additional observations from a re-analysis of the deposited data

How the results depend on the processing

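The 6 called members kept their direction and call under all 17 alternatives, and the 3 others stayed uncalled in each of the 16 that kept their rows. Of 8446 called rows 4553 were higher and 3893 lower. Centring the arrays on their medians, which were higher in every clone array, turned this to 3818 and 4367. The count fell to 5252 at an adjusted p under 0.01, which is stricter by construction. It lay between 6630 and 7585 when single arrays were left out. The retinoid pathway genes outside the members gave 16 to 27 calls over the alternatives run on single rows (20 in the main setting), and the other aldehyde dehydrogenases 6 to 9 (8). Of 506 values of 30 other named genes, 33 lost their call and 1 gained one with the direction kept. A further 4 changed direction and were called in either the main setting or the alternative. Changes of sign in values called in neither were not counted. All 4 reversals came with each chromosome centred on its genes above the median level, a setting added after seeing the data. They were 0.0888 for Dgat1, 0.10 for Adh5 and -0.0041 for Aldh2, which also lost their calls, and 0.19 for Cyp26a1, which gained one. This setting moves rows at the bottom of the arrays by the same amount as bright ones. Under it 27 pathway genes, 3 leukocyte, 4 endothelial and 2 epithelial markers were called. Rxra and Meis2 lost their call at the stricter threshold, without moderated variances and with the authors' deposited p-values after Benjamini-Hochberg adjustment. The last pair of settings is close to being the same check, with 6254 and 6252 rows called. Arrays of the same sample number did not deviate together (correlations of -0.184, -0.139 and -0.0353 over rows), so the number was not taken as a pairing. With it as a replicate block, 6669 rows, 6 members, 21 pathway genes and 6 other aldehyde dehydrogenases were called, and Aldh2 (0.21) was not. Dim levels, near the lower quartile or below the array medians, limit how exact the sizes for Aldh1a1, Aldh1a2, Aldh1a7, Crabp2 and Rarb are.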

Other observations

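Cofactors of nuclear receptors, which open or close chromatin where retinoic acid receptors bind, also differed and did not share a direction. The coactivator genes Ncoa1 and Ncoa2 rose by 0.72 ± 0.08 (SE, adjusted p = 0.000817, limma) and 0.46 ± 0.06 (adjusted p = 0.00206), the former from a population level of 5.03 below the array medians. The coactivator gene Ncoa3 fell by 0.85 ± 0.09 (adjusted p = 0.000723, limma), from 7.64, 7.80 and 7.96 in the population to 7.04, 6.93 and 6.89 in the clone. The corepressor gene Ncor1 rose by 0.38 ± 0.06 (adjusted p = 0.00429, limma). Ncor1 was named after its values were seen.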
